A study of Mus musculus with 2 samples.

Results

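Wide DNase I footprints of mouse frontal cortex, the stretches of at least 25 bp in which the nuclease cut accessible DNA less often than around them, were described in 2 libraries. The members were chosen by a measured value, the deposited width (end minus start) of each autosomal footprint. Replicate 1 had 27330 wide footprints among its 286368 autosomal ones, and replicate 2 had 18727 among 182949. They were set against narrow footprints of 7 to 12 bp, of which replicate 1 had 190792 and replicate 2 had 121718. With all chromosomes counted, the deposited lists held 293484 footprints in replicate 1 and 187137 in replicate 2.

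Both libraries form 1 group, frontal cortex of female B6CASTF1/J mice, a first-generation cross of the B6 and CAST strains, aged 10 days, with no treatment named and no control group. The labels call them biological replicates 1 and 2 with separate biosamples, but give both the same donor identifier and a mark "3x" that is not explained, so pooling of animals cannot be judged and the spread between libraries may be partly technical. A two-sided exact sign-flip test over 2 libraries cannot give a p below 0.5, so each comparison is given as its value in each library. Peaks of the longer deposited list lay within 500 bp of a start site for 6 of 6 excitatory neuron markers in replicate 1 and 5 of 6 in replicate 2, for 4 of 4 inhibitory neuron markers and 2 of 2 forebrain markers in both, and for 0 of 4 markers of other organs. Astrocyte markers had 4 of 4 and 3 of 4, oligodendrocyte lineage markers 3 of 4 in both, microglial markers 1 of 3 in both, and endothelial markers 2 of 2 in replicate 1 and 0 of 2 in replicate 2. Replicate 1 had 104654 peaks in its longer list and replicate 2 had 81654, and the labels and files used give no read depth.

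In an accessible region, a protein on its site shields the bases it contacts, and DNase I cuts beside it. The width of the protected stretch follows the length of the contact, and neighbouring proteins can merge into a longer one. CTCF, a protein with many zinc fingers, contacts an unusually long site and, with the ring complex cohesin, sets boundaries and loop anchors of chromosome folding. Most sequence-specific factors of neurons, such as the AP-1, MEF2 and bHLH families, contact short sites.

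The sequences that carry the main result are aligned wide footprints over an exact match to the CTCF core consensus of 12 letters. Each line below is the most common base at every position from 20 bases before the core to the end of the core, read 5′ to 3′ on the strand of the match, and capitals mark bases present in at least 50% of the footprints. The bases come from the B6 reference assembly GRCm38.p6, while these animals carry a B6 and a CAST copy.
Footprints of 40 to 49 bp, replicate 1 (643 aligned): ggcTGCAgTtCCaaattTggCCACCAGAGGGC
Footprints of 40 to 49 bp, replicate 2 (557 aligned): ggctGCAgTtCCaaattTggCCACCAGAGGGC
Footprints of 25 to 34 bp, replicate 1 (2915 aligned): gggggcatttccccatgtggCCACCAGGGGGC
Footprints of 25 to 34 bp, replicate 2 (1913 aligned): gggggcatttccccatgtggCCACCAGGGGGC
The longer footprints shared a second run of letters before the core, TGCANTNCC, whose first T was below 50% in replicate 2, and the shorter ones had no base at 50% or more there.

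Wide footprints made up 9.54% of autosomal footprints in replicate 1 (95% Wilson interval 9.44 to 9.65) and 10.2% in replicate 2 (10.1 to 10.4), a mean of 9.89% ± 0.490 (SD, n = 2). Intervals here cover counting error only. They held 23.7% and 25.7% of all footprint bases in replicates 1 and 2. Their median width was 30 bp in both libraries, with quartiles of 27 and 34 bp in replicate 1 and 27 and 36 bp in replicate 2, and the widest spanned 85 and 86 bp. Each autosome had between 829 and 2332 of them in replicate 1, and between 567 and 1623 in replicate 2.

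No gap in the widths set these footprints apart at the threshold. Replicate 1 had 3581 footprints of 23 bp, 3327 of 24 bp, 3172 of 25 bp and 2760 of 26 bp, and replicate 2 had 2150, 2045, 1892 and 1757 at the same widths. Within the wide class the decline slowed. Counts per width were 498 in replicate 1 and 458 in replicate 2 at 36 bp. They stayed near a plateau from 38 bp (424 and 364) to 46 bp (402 and 320). They were 340 and 259 at 47 bp, then dropped to 113 and 72 at 50 bp and to 17 and 16 at 53 bp. Footprints of 40 to 49 bp numbered 3825 in replicate 1 and 3015 in replicate 2, and those of 50 bp or more numbered 320 and 277. A further step lay below the threshold, where 13 bp footprints (16260 and 10887) outnumbered those of 12 bp (13953 and 8354) and 14 bp (5278 and 3063), and 15 bp footprints (6563 and 3995) those of 14 bp.

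**Figure D1:**
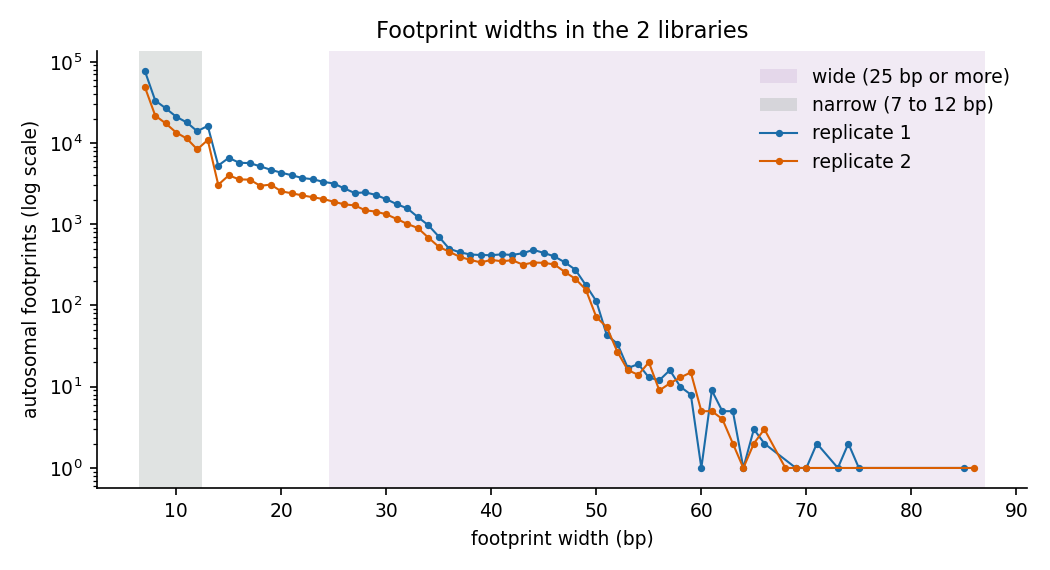
Number of autosomal footprints (log scale) at each width in bp, for replicate 1 (blue) and replicate 2 (orange), with the wide and the narrow class shaded. Counts decline with width, apart from small increases below 25 bp such as that at 13 bp (16260 and 10887) and a plateau between about 38 and 46 bp. They fall steeply near 50 bp in both libraries.

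Wide footprints recurred between the libraries far more often than narrow ones. Of the wide footprints of replicate 1, 91.1% (90.8 to 91.4) overlapped a footprint of replicate 2 by at least 1 bp, against 21.7% (21.5 to 21.8) of its narrow footprints. Of those of replicate 2, 99.3% (99.2 to 99.4) overlapped a footprint of replicate 1, against 45.7% (45.4 to 45.9) of narrow ones. The difference was 61.6 ± 11.2 percentage points (SD, n = 2) and had the same sign in both libraries. A longer row has more bases that can overlap, so the centre base was also asked for, and 82.6% and 96.6% of wide against 16.4% and 36.7% of narrow centres were covered in replicates 1 and 2.

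Sharing was graded by width. In replicate 1 it was 21.7% at 7 to 12 bp, 51.6% at 13 to 18 bp, 75.5% at 19 to 24 bp, 87.1% at 25 to 29 bp, 93.6% at 30 to 34 bp, 98.5% at 45 to 49 bp and 100% of the 320 footprints of 50 bp or more. In replicate 2 it was 45.7% at 7 to 12 bp, 95.1% at 19 to 24 bp, 98.7% at 25 to 29 bp and 100% of the 277 footprints of 50 bp or more.

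**Figure D2:**
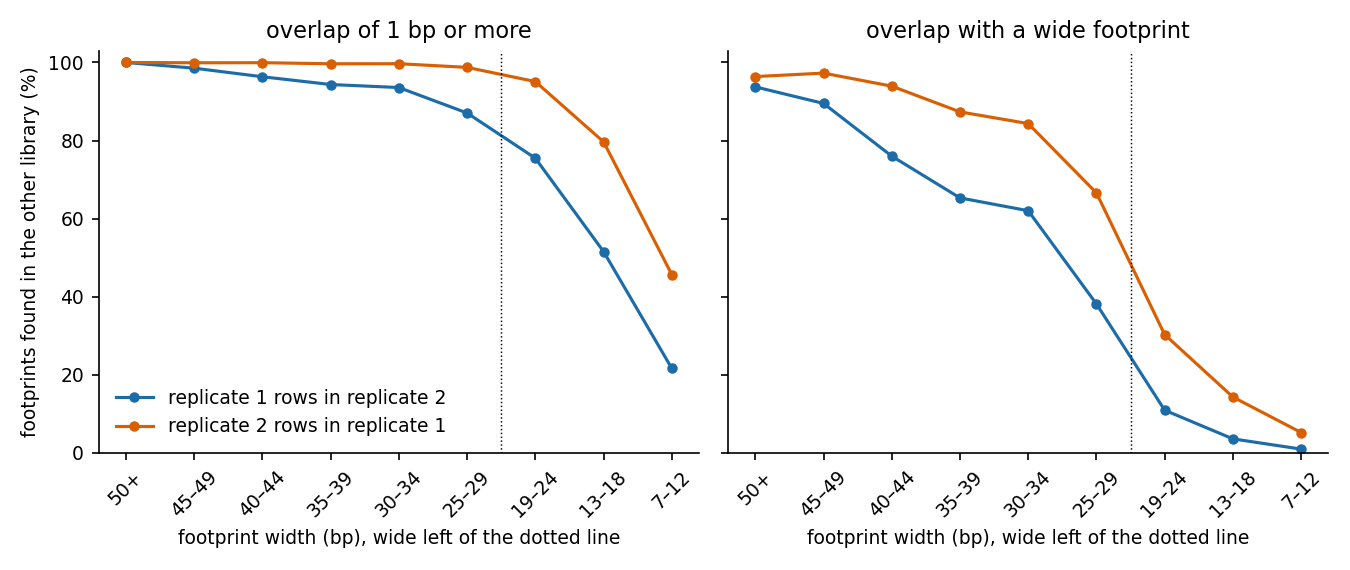
Share of footprints (%) that overlap any footprint (left) or a wide footprint (right) of the other library, by footprint width in bp, with wide footprints left of the dotted line. Both shares decrease toward narrow footprints in both libraries, to 21.7% and 45.7% for any overlap at 7 to 12 bp.

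The width itself recurred less fully than the site. Replicate 2 had fewer wide footprints than replicate 1 (18727 against 27330), which limits how many of those of replicate 1 can have a wide partner. The partner was itself wide for 54.0% of wide footprints of replicate 1 and for 78.8% of those of replicate 2, a mean of 66.4% ± 17.5 (SD, n = 2). Most of the remainder overlapped a shorter footprint, with a median width of 17 bp in replicate 2 for those of replicate 1 and of 21 bp in replicate 1 for those of replicate 2. In 16.2% of wide footprints of replicate 1 and 11.6% of those of replicate 2, the other library had 2 or more separate footprints under the same stretch. A one-to-one match left 14749 pairs of wide footprints. In 49.4% of them both ends lay within 2 bp of each other, and in 8.88% both ends were identical. The median difference was 1 bp at either end. Of these pairs, 1952 were 40 to 49 bp wide in both libraries.

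The wide footprints without a partner numbered 2429 in replicate 1 and 129 in replicate 2. They lay in weaker peaks, with a median authors' signal of 0.698 in replicate 1 and 1.09 in replicate 2, against 2.12 and 3.09 for shared wide footprints. Sharing was therefore also read within 4 bins of peak signal that split all autosomal footprints in peaks into near-equal numbers. In the weakest bin of replicate 1, 39.4% of 1152 wide footprints were shared, against 6.49% of 50199 narrow ones. In its strongest bin the values were 98.9% of 11464 wide against 48.9% of 27047 narrow. In replicate 2 they were 92.9% of 616 wide against 29.2% of narrow in the weakest bin, and 99.9% against 64.8% in the strongest. The difference between classes was 49.2 percentage points over the 2 upper bins together, an alternative chosen after the data were seen, with 59.0 in replicate 1 and 39.4 in replicate 2.

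Nearly all wide footprints lay in peaks. The longer peak list covered 96.0% (95.8 to 96.3) of wide and 82.9% (82.7 to 83.0) of narrow footprints in replicate 1, and 96.8% (96.6 to 97.1) of wide and 85.3% (85.1 to 85.5) of narrow ones in replicate 2, a difference of 12.3 ± 1.20 percentage points (SD, n = 2). In the shorter list the shares were 90.6% of wide and 54.5% of narrow in replicate 1, and 94.2% of wide and 62.9% of narrow in replicate 2. The peak's median signal, the authors' value whose scaling is not stated, was 1.93 for wide and 0.839 for narrow footprints in replicate 1, and 3.07 for wide and 1.44 for narrow ones in replicate 2. The log2 ratio of these medians was 1.15 ± 0.083 (SD, n = 2). A high signal was not particular to the wide class. Footprints of 13 to 24 bp had medians of 1.52 in replicate 1 and 2.51 in replicate 2. Those of 19 to 24 bp had 1.99 and 3.17, above the wide medians.

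Few peaks had a wide footprint, and those that had one mostly had only 1. Of the autosomal peaks of the longer list, 22031 of 101790 in replicate 1 (21.6%) and 15442 of 79516 in replicate 2 (19.4%) held a wide footprint. Of these peaks, 3505 and 2237 held 2 or more, up to 6 in replicate 1 and 5 in replicate 2. Wide footprints sat near the middle of the peak. Their centres lay a median of 17 bp from the peak centre in replicate 1 and 18 bp in replicate 2, against 54 and 55 bp for narrow footprints. The nearest other footprint on either side was a median of 32 and 33 bp away from wide footprints and 27 and 28 bp away from narrow ones.

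The FDR that the authors deposited for the cut rate was also lower at wide footprints. Its median at the centre base was 2.70e-15 for wide and 7.06e-06 for narrow footprints in replicate 1, and 2.51e-17 for wide and 8.48e-07 for narrow ones in replicate 2. That table was an input to the footprint calls, so these values describe the classes and are not independent of them.

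At genes, wide footprints were no more frequent within 1 kb of a start site than narrow ones, but they were placed differently there. Wide footprints had 44.2% (43.6 to 44.8) of their number within 1 kb of a GENCODE M21 start site in replicate 1, against 47.3% (47.1 to 47.6) of narrow ones. In replicate 2 the shares were 48.5% (47.8 to 49.2) of wide and 51.6% (51.3 to 51.8) of narrow. The difference of -3.08 ± 0.0362 percentage points (SD, n = 2) depended on the window, the class limits and peak signal. Within 100 bp of a start site the wide share was the higher one, with 25.4% of wide against 20.4% of narrow footprints in replicate 1 and 29.1% against 25.6% in replicate 2. With wide meaning 20 bp or more, the difference over 1 kb was 2.79 percentage points in favour of the wide class, and among footprints in peaks it was 0.422 in replicate 1 and -0.992 in replicate 2. The deficit was larger under other settings, at -5.88 with wide meaning 30 bp or more and -5.25 against all footprints under 25 bp. At matched peak signal, read in 4 bins of that signal, the wide share was the lower one in every bin of both libraries. In the third bin it was 22.03% of wide and 52.1% of narrow footprints in replicate 1 and 29.9% of wide and 61.4% of narrow ones in replicate 2. In the strongest bin it was 74.9% of wide and 84.8% of narrow in replicate 1, and 81.96% of wide and 89.9% of narrow in replicate 2. Over the 2 upper bins together, an alternative chosen after the data were seen, the difference was -14.7. Intermediate footprints of 13 to 24 bp had the highest shares within 1 kb, 56.0% in replicate 1 and 59.6% in replicate 2.

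Wide footprints within 1 kb lay mostly upstream of the start. Among those within 1 kb, 71.2% of wide and 48.3% of narrow footprints were upstream in replicate 1, and 74.3% of wide and 52.9% of narrow ones in replicate 2. In the first 100 bp on either side, replicate 1 had 5017 wide footprints upstream and 1840 downstream, a ratio of 2.73, against 18944 and 19523 narrow ones, a ratio of 0.970. In replicate 2 the wide footprints numbered 4098 upstream and 1303 downstream, a ratio of 3.15, against 16366 and 14366 narrow ones, a ratio of 1.14. The median position of the wide footprints within 1 kb was -41 and -43 bp.

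**Figure D3:**
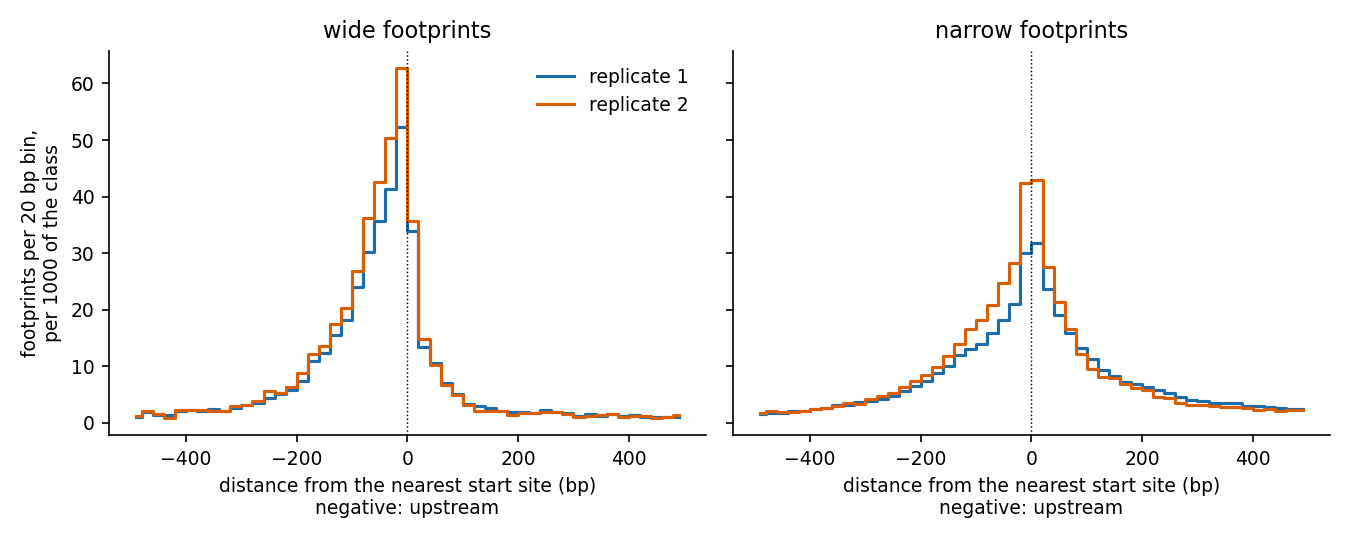
Footprints per 20 bp bin and per 1000 footprints of their class, against the distance in bp of the footprint centre from the nearest start site (negative is upstream), for wide (left) and narrow (right) footprints. The wide profile falls off steeply after the start site in both libraries, and the narrow profile is closer to symmetric.

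Away from start sites, 24.6% of wide and 24.52% of narrow footprints of replicate 1 lay in introns, and 22.3% of wide and 22.8% of narrow ones of replicate 2. Intergenic sequence held 27.3% of wide and 23.5% of narrow footprints in replicate 1, and 25.5% of wide and 21.9% of narrow ones in replicate 2. Exons beyond the 1 kb windows held 3.87% of wide and 4.61% of narrow footprints in replicate 1, and 3.67% of wide and 3.70% of narrow ones in replicate 2.

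GC content in the 50 bp around the centre averaged 61.0% for wide and 58.9% for narrow footprints in replicate 1, and 62.4% for wide and 59.4% for narrow ones in replicate 2, a difference of 2.56 ± 0.631 percentage points (SD, n = 2). It was 0.659 among footprints in the 2 upper signal bins. Footprints of 13 to 24 bp averaged 61.8% in replicate 1 and 62.4% in replicate 2, so this GC content was not particular to wide ones. The lower-case (repeat-masked) share of those bases was 8.07% for wide and 7.58% for narrow footprints in replicate 1, and 6.65% for wide and 7.24% for narrow ones in replicate 2, so the difference of -0.0488 ± 0.764 percentage points (SD, n = 2) lay within the spread between libraries and had opposite signs in them. The 32 central bases occurred once in the assembly for 98.1% of wide and 98.6% of narrow footprints in replicate 1, and 98.2% of wide and 98.6% of narrow ones in replicate 2.

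CTCF separated wide from narrow footprints more than any other of the 28 consensus motifs searched on both strands. An exact match to the core lay in the 50 bp window of 14.03% of wide and 0.505% of narrow footprints in replicate 1, and of 14.6% of wide and 0.974% of narrow ones in replicate 2, a difference of 13.6 ± 0.0573 percentage points (SD, n = 2). Windows of 50 bp tiled across the peaks had a match in 0.928% and 1.04% of cases. With up to 1 mismatch, an alternative chosen after the data were seen, the shares were 35.8% of wide and 2.35% of narrow footprints in replicate 1, and 36.3% of wide and 3.44% of narrow ones in replicate 2, against 3.13% and 3.37% of peak windows. A motif match is a sequence description and does not show that the factor was bound.

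CTCF matches were most frequent in wide footprints away from start sites. With up to 1 mismatch, 54.1% of wide footprints over 1 kb from a start site had a match in replicate 1 and 58.1% in replicate 2, against 3.47% and 5.69% of narrow footprints there. Within 1 kb the shares were 12.7% and 13.02% of wide against 1.10% and 1.34% of narrow footprints. Of the exact CTCF matches inside peaks, numbering 5328 in replicate 1 and 4759 in replicate 2, 71.2% and 56.7% lay under a wide footprint and 3.12% and 4.56% under a narrow one. The footprints that covered such matches had a median width of 29 bp in both libraries.

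The CTCF share did not increase evenly with width but had a high on either side of 35 to 39 bp. In replicate 1, matches with up to 1 mismatch were in 27.5% of footprints of 25 to 29 bp, 44.9% at 30 to 34 bp, 29.7% at 35 to 39 bp, 46.1% at 40 to 44 bp, 57.3% at 45 to 49 bp and 26.3% at 50 bp or more. In replicate 2 the same classes gave 29.2%, 41.9%, 32.3%, 46.7%, 54.5% and 22.4%.

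Aligned on the core, wide CTCF footprints came in 2 sizes that shared their downstream edge and differed upstream. Those under 25 bp were not aligned. Of exact matches in peaks, 92.7% and 81.4% lay under any footprint, and 71.2% and 56.7% under a wide one. Footprints of 25 to 34 bp began a median of 5 bp before the core in both libraries (10th to 90th percentile 4 to 8 bp in replicate 1 and 4 to 9 bp in replicate 2). Those of 40 to 49 bp began a median of 22 bp before it in both libraries (19 to 24 bp in replicate 1 and 18 to 24 bp in replicate 2). Downstream of the core, the shorter ones reached a median of 12 bp and the longer ones 11 bp in each library. Widths of 35 to 39 bp were less frequent, with 252 aligned footprints in replicate 1 and 238 in replicate 2.

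The added stretch was richer in the letters shown at the opening. At the position 16 bases before the core, G was present in 70.3% of the 40 to 49 bp footprints of replicate 1 and 67.9% of those of replicate 2, against 32.2% and 33.6% of the 25 to 34 bp ones. T at 12 bases before the core was present in 73.1% and 69.5% of the longer footprints, against 41.7% and 41.5% of the shorter ones. Of the 7 defined letters of TGCANTNCC, placed 17 bases before the core with 1 base of play, the longer footprints matched 4.84 on average in replicate 1 and 4.77 in replicate 2, against 3.36 and 3.38 for the shorter ones. At least 5 letters were matched by 62.1% and 59.96% of the longer and by 15.9% and 15.5% of the shorter footprints. These letters were read off the longer footprints themselves after the data were seen, so the difference describes them and is not a test. As background, the zinc fingers of CTCF are known to contact a second, more variable motif upstream of the core.

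Read the other way, among the aligned CTCF footprints of 25 bp or more, the share of 40 to 49 bp increased with the number of letters. In replicate 1 it was 2.29% of 611 footprints with 2 letters, 5.40% of 1129 with 3, 16.2% of 1034 with 4, 33.6% of 616 with 5, 57.4% of 256 with 6 and 67.2% of 67 with all 7. In replicate 2 it was 3.33% of 421, 7.58% of 778, 19.8% of 747, 39.6% of 449, 58.7% of 213 and 59.6% of 52 over the same numbers of letters. Size recurred across libraries at single sites. Of 2583 pairs in which both footprints covered 1 exact match, 547 were 40 to 49 bp wide in replicate 1 and 549 in replicate 2, and 386 were so in both, while 1589 were 25 to 34 bp wide in both. In 91 pairs the footprint was of the longer size in replicate 1 and of the shorter in replicate 2, and in 121 pairs the reverse.

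**Figure D4:**
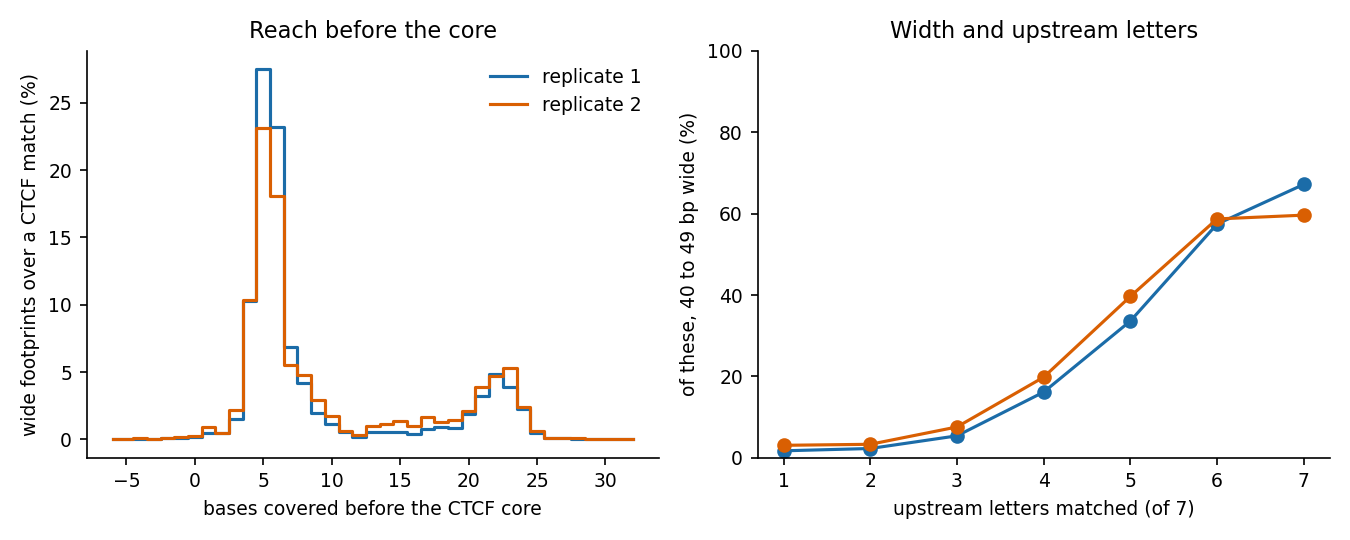
Left, wide footprints over an exact CTCF match (%) by the number of bases they cover before the core. Right, share of those footprints that are 40 to 49 bp wide (%) by the number of the 7 upstream letters matched, for numbers with at least 20 footprints. Both libraries show a high at 5 bp and a second near 22 bp, and the share increases with the letters matched.

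Examples of both sizes follow, the strongest pairs by mean peak signal that touch no annotated UTR, with 5 or more of the upstream letters for the longer size and 3 or fewer for the shorter, read 5′ to 3′ on the strand of the core. Capitals mark the core and, in the longer ones, the upstream letters matched.
chr4:151141710-151141757, minus strand, intron of Camta1: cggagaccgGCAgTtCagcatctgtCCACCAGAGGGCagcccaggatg
chr11:45945005-45945049, plus strand, near Lsm11: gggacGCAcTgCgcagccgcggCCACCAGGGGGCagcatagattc
chr8:84847096-84847124, minus strand, near 1700122E12Rik: cccaccCCACCAGGGGGCgtcccccacaa
chr17:56255944-56255973, minus strand, near Fem1a: tgctgaCCAGCAGGGGGCgcgcgccgagtg
The site in Camta1, a calmodulin-binding transcription activator, was 48 bp wide in replicate 1 and 49 bp in replicate 2, began 25 bp before the core in both, and lay in peaks with a signal of 6.79 and 10.4. The site centred at -92 bp from a start of Lsm11 (negative is upstream), a histone mRNA processing factor, was 45 and 44 bp wide and began 22 bp before the core in both. The site at -851 bp from Fem1a was 30 bp wide with the same 2 ends in both libraries and began 6 bp before the core. These 4 sites were chosen after their values were seen.

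Beyond CTCF, 13 of the 28 motifs had a higher share in the 50 bp windows of wide than of narrow footprints in both libraries. A lower one was seen for 11, and 3 differed in sign between the libraries (the full REST site, its left part TTCAGCACC, and ZNF143, ACTACAATT). A match in a footprint here means a match in its 50 bp window, unless stated. Matches to the SP/KLF box GGGGCGGGG, bound by zinc-finger activators of CpG-rich promoters, were in 5.01% of wide and 1.29% of narrow footprints in replicate 1, and in 5.83% of wide and 1.64% of narrow ones in replicate 2, with 1.29% and 1.44% of peak windows. The cAMP response element TGACGTCA, the site of CREB family factors, was in 1.23% of wide and 0.146% of narrow footprints in replicate 1, and in 1.25% of wide and 0.221% of narrow ones in replicate 2, with 0.197% and 0.217% of peak windows. NRF1 matches (GCGCATGCG), the site of an activator of mitochondrial and growth genes, were in 0.735% of wide and 0.160% of narrow footprints in replicate 1, and in 1.09% of wide and 0.237% of narrow ones in replicate 2, with 0.170% and 0.204% of peak windows. All 3 had higher shares within 1 kb of a start site than beyond it: 10.4% against 0.702% of wide footprints for SP/KLF in replicate 1, 2.48% against 0.236% for CRE and 1.46% against 0.157% for NRF1. CTCF, SP/KLF, CRE or NRF1 matches together were in 20.9% of wide and 2.09% of narrow footprints in replicate 1, and in 22.6% of wide and 3.05% of narrow ones in replicate 2. Footprints of 13 to 24 bp had 4.52% and 4.94% for SP/KLF and 0.671% and 1.00% for NRF1, nearer the wide than the narrow shares. For CRE they had 0.554% and 0.741%, and for CTCF 1.71% and 2.79%.

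Shares were also higher in wide than in narrow footprints of both libraries for the full NFI palindrome, RFX, EGR (GCGTGGGCG), YY1 (AAGATGGCG), ETS (CCGGAAG), NF-Y, Kaiso (TCTCGCGAG), E2F (TTCCCGCC) and the neuronal E-box CAGATG. For E2F the 95% Wilson interval of the wide share held the narrow share in both libraries, so no difference beyond counting error was seen. Footprints of 1 library are not replicates, so these intervals are not a test of any motif. YY1 matches were in 0.465% of wide and 0.197% of narrow footprints in replicate 1, and in 0.507% of wide and 0.281% of narrow ones in replicate 2, with 0.151% and 0.177% of peak windows. CAGATG was in 4.92% of wide and 4.27% of narrow footprints in replicate 1, and in 4.65% of wide and 4.18% of narrow ones in replicate 2, with 4.33% and 4.35% of peak windows.

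Sites of several neuronal and signal-dependent factors were less frequent in the 50 bp windows of wide footprints. AP-1 matches (TGANTCA), bound by Fos and Jun dimers, were in 0.662% of wide and 1.25% of narrow footprints in replicate 1, and in 0.646% of wide and 1.22% of narrow ones in replicate 2, with 1.33% and 1.34% of peak windows. The bHLH E-box CAGCTG was in 2.99% of wide and 5.01% of narrow footprints in replicate 1, and in 2.93% of wide and 4.61% of narrow ones in replicate 2, with 4.67% and 4.52% of peak windows. Homeobox matches (TAATTA) were in 0.223% of wide and 0.485% of narrow footprints in replicate 1, and in 0.171% of wide and 0.429% of narrow ones in replicate 2, with 0.519% and 0.487% of peak windows. The other lower ones were MEF2, SRF, SOX, POU (ATGCAAAT), TEAD (ACATTCC), PU.1 (GAGGAAGT), TATAAA and the single NFI site TTGGCA. The interval of the wide share held the narrow share for SRF in both libraries and for the single NFI site in replicate 1, so those were not lower beyond counting error. The lower shares coincided with the GC content given above, which was higher in wide than in narrow footprints. Its part in the motif shares was not tested. SP/KLF and EGR letters can overlap, and the full NFI site contains the single one. With the match centre inside the footprint, AP-1 and CAGCTG were higher in wide ones, which have more bases to hold a match. AP-1 was then in 0.278% of wide and 0.205% of narrow footprints in replicate 1, and in 0.288% and 0.200% in replicate 2. CAGCTG was in 2.02% and 1.44%, then in 2.03% and 1.33%. TAATTA was in 0.0878% and 0.0729% in replicate 1, and in 0.0587% and 0.0616% in replicate 2.

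**Figure D5:**
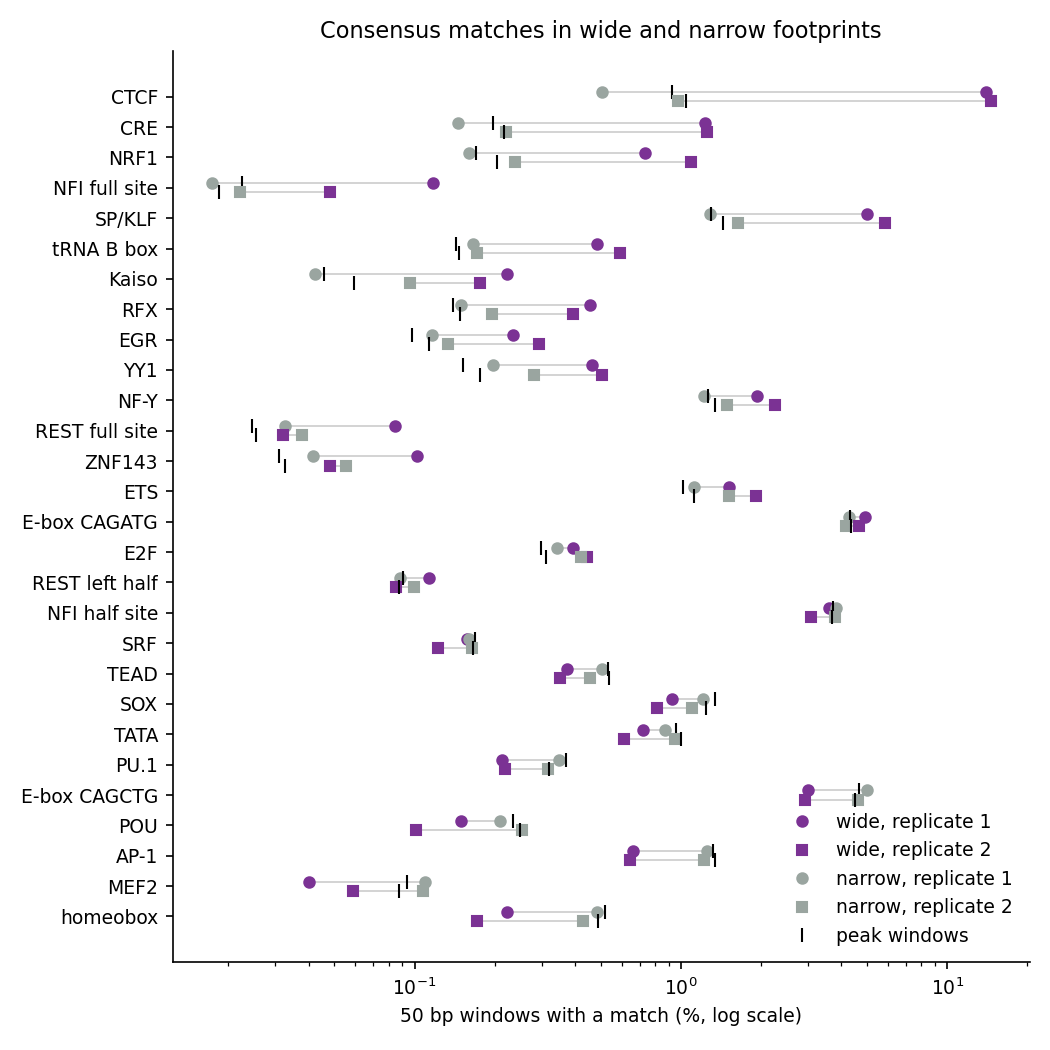
Share of 50 bp windows with a consensus match (%, log scale) for wide (purple) and narrow (grey) footprints and for windows tiled across peaks (black ticks), with circles for replicate 1 and squares for replicate 2. CTCF has the widest separation, 14.03% and 14.6% of wide against 0.505% and 0.974% of narrow footprints. AP-1, MEF2 and homeobox matches lie lower in the windows of wide footprints.

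Seen from the motif, few factors had mostly wide footprints. Of matches inside peaks that were covered by any footprint, 76.8% of CTCF matches in replicate 1 and 69.7% in replicate 2 were under a wide one. The share was 54.5% and 52.5% for the tRNA B box, 45.6% and 38.7% for CRE, 30.8% and 34.3% for SP/KLF, 30.4% and 32.8% for NRF1, 13.3% and 15.2% for CAGCTG and 12.7% and 15.3% for AP-1. NRF1 matches were covered in 83.3% and 83.0% of cases, with a median footprint width of 21 bp, just below the wide class. AP-1 matches were covered in 8.96% and 6.64% of cases.

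Without footprints that matched CTCF with up to 1 mismatch, 17545 wide footprints remained in replicate 1 and 11937 in replicate 2. Of all words of 8 letters, counted on either strand, CCCCGCCC had the largest excess over narrow footprints in both libraries, with 11.1% of wide and 2.47% of narrow footprints in replicate 1 and 13.2% of wide and 3.03% of narrow ones in replicate 2. Overlapping GC-box words (GCCCCGCC, CCCGCCCC and CCGCCCCC) followed. Over 1 kb from start sites the leading words were GCGCCCCC (3.63% of wide and 0.264% of narrow in replicate 1, 4.24% and 0.374% in replicate 2) and GCGCCACC (3.13% and 0.237%, then 3.57% and 0.300%), and AGGGGGCG was next. Read on the other strand, both leading words begin with letters that fit the end of the CTCF core, and AGGGGGCG does so as written. Sites with more than 1 mismatch to the core were not left out, so these words cannot be taken as unrelated to CTCF.

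Wide footprints of tRNA genes formed a small group of another kind. tRNA genes are short, carry their promoter elements (the A and B boxes) inside the transcribed part, and are read by RNA polymerase III. The B box letters GTTCGANNC were in 0.483% of wide and 0.166% of narrow footprints in replicate 1, and in 0.593% of wide and 0.171% of narrow ones in replicate 2, with 0.144% and 0.147% of peak windows. Of 386 autosomal tRNA genes in the RefSeq annotation of the same assembly, 230 overlapped a peak in each library, and 142 of these (61.7%) in replicate 1 and 125 (54.3%) in replicate 2 had a wide footprint over them. Wide footprints over tRNA genes numbered 191 and 164, or 0.699% and 0.876% of all wide footprints, against 0.0807% and 0.104% of narrow ones. Their median width was 36 bp in both libraries, and 98.4% of those of replicate 1 and 100% of those of replicate 2 were shared. The central 32 bases occurred more than once in the assembly for 46.1% and 47.6% of them, and how reads of near-identical copies were placed is not stated. An example is the wide pair with a B box and the strongest peak, over the leucine tRNA gene n-TLaag4 near Polr3e, a subunit gene of that polymerase. It was 38 bp wide in replicate 1 and 51 bp in replicate 2, in peaks with signals of 9.27 and 14.3. Capitals mark the B box letters on the plus strand.
chr7:120917565-120917615: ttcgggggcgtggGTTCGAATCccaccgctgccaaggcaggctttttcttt

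The 8 widest pairs of wide footprints present in both libraries were diverse, and several held repeated letters. The widest was 85 bp in replicate 1 and 86 bp in replicate 2, centred at -70 bp from a start of Nfat5, the osmotic stress factor, in peaks of signal 6.68 and 11.3. A pair of 65 and 66 bp in an intron of Col18a1, a basement membrane collagen, held 2 CTCF core matches with 1 mismatch each, shown in capitals. A pair of 69 and 59 bp centred at -66 bp from Ccdc66 held 2 NF-Y matches on opposite strands, also in capitals. NF-Y is a trimeric activator of the CCAAT box. A pair of 70 and 68 bp at the start of Zmynd8, a chromatin reader, held 3 copies of CCAAT counted on both strands.
chr8:107293358-107293443, near Nfat5, capitals mark an ETS match: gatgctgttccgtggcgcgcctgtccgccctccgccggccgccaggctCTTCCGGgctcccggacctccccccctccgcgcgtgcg
chr10:77130730-77130795, Col18a1: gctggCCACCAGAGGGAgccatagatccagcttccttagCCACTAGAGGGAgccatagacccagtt
chr14:27508492-27508560, near Ccdc66: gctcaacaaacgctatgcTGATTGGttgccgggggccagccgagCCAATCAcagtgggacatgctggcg

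Of the other widest pairs, that of 63 and 65 bp on chromosome 10 overlapped the serine tRNA gene n-TStga3, at -520 bp from Ctnna3, and that of 66 bp in both libraries lay at -477 bp from Leprot. The pair of 73 and 59 bp on chromosome 4 was a run of the 5-base unit CAGAC, all lower-case, whose central 32 bases occurred 139 times in the assembly, and that of 71 and 70 bp on chromosome 8, 7221 bp from a start of Gm21182, had central bases that occurred 3 times. Over all wide footprints, 76 in replicate 1 and 48 in replicate 2 had central bases with 100 or more occurrences.

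The 10 strongest pairs by mean peak signal lay in few peaks. The first was 27 and 28 bp wide in an exon of Trpm8, an ion channel of cold sensing, 47 bp downstream of a start, in peaks with signals of 28.5 in replicate 1 and 32.2 in replicate 2. Of the 10, 3 lay side by side in 1 intergenic peak on chromosome 6, at -18421 to -18211 bp from Gm43980, and 3 in 1 peak within Kpna1, an importin gene, on chromosome 16, where signals were 20.2 and 21.4 and 20.7 and 20.8. Central bases of these 6 occurred 1 to 3 times in the assembly. That count leaves out inexact copies and any copies missing from the assembly, and how reads of repeated sequence were placed is not stated. Whether these signals belong to these places alone can therefore not be judged. Another lay in an intron of Il31ra, 51 and 49 bp wide.

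Matches of single motifs inside the strongest paired footprints are shown for CRE, RFX and NFI, 1 site each, in capitals on the plus strand.
CRE, chr6:86472405-86472436: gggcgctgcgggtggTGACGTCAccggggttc
RFX, chr2:30658539-30658565: actccGTTGCCATGGCGACgtggccgc
NFI, chr3:107931855-107931885, near Gstm7: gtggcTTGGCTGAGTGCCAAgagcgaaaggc
The CRE pair was 26 bp wide in replicate 1 and 32 bp in replicate 2. It lay in an annotated exon, with the genes A430078I02Rik and C87436 over it, in peaks with signals of 12.1 and 13.8. The RFX pair was 27 bp wide in both libraries and had signals of 11.1 and 14.1. It lay in an annotated exon, with the genes 9330198N18Rik and Gm14486 over it. The NFI pair was 29 and 31 bp wide, at -52 bp from Gstm7, a glutathione transferase gene.

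Genes were then ranked by the wide footprints centred within 1 kb of their start sites. At least 1 was present at 36.3% of the 20780 autosomal protein-coding genes in replicate 1 and at 30.5% in replicate 2, and 5396 genes (25.97%) had at least 1 in both libraries. Of 13591 genes with a peak within 1 kb in both libraries, 39.7% had wide footprints in both. The counts of genes with many annotated starts cover more sequence, and neighbouring genes can share footprints.

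Ranked by the smaller count of the libraries, the first 3 genes had 7 or 8 wide footprints in each. Cic, a transcriptional repressor, had 7 in replicate 1 and 8 in replicate 2, beside 41 and 29 narrow ones. Tmpo, a nuclear lamina protein gene, had 7 in both libraries beside 12 and 19 narrow ones. H2-DMa, of antigen loading, had 8 and 7. Gys1, the glycogen synthase gene, had 6 and 7 wide footprints beside only 3 narrow ones in each library. Camta1, Ppp2r3d, Rnf44 and Gnb2 each had 7 and 6. Jun, of the AP-1 factor, had 5 and 6, as did Hmgb1, a chromatin protein gene, and Ephb3, an ephrin receptor gene. Rbpj, the DNA-binding partner of Notch, had 7 and 5, and Hip1 the same. Also among the first 20 genes were Rab40c, Kat6b (a histone acetyltransferase gene) and Nsun2 (an RNA methyltransferase gene), with 5 in both libraries, and Hexim2 and Lpcat3, with 6 and 5.

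Among gene lists, those of architectural, activity-induced, respiration and ribosomal protein genes held wide footprints in both libraries more often than the 25.97% of all genes, and those of Hox, protocadherin, oligodendrocyte lineage and microglial genes less often, fewer of which had a peak within 1 kb. CTCF, cohesin and architectural genes had wide footprints in both libraries at 9 of 12, with Zfp143 at 4 and 3 and the cohesin subunit gene Smc3 at 3 and 5. Activity-induced genes had them at 11 of 18, with Jun and with Egr1, an immediate early zinc-finger factor, at 3 and 4. Mitochondrial respiration genes had them at 42 of 90, with Ndufa13 at 3 and 4 and Atp5g2 at 4 and 3. Cytosolic ribosomal protein genes had them at 36 of 80, with Rpl26 at 3 and 3 and Rplp0 at 2 and 2. Replication-dependent histone genes had them at 19 of 67, led by Hist1h4a at 4 and 3, and genes named Zfp at 100 of 358. These counts are descriptions and no list was tested.

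Neuronal lists lay near or below that share, and, as shares of their genes with a peak in both libraries, below the 39.7% of all such genes. This was not particular to neuronal lists. Histone genes had 33.3%, genes named Zfp 31.9% and astrocyte genes 33.3% by the same count. Synaptic vesicle release genes, all 18 with a peak in both libraries, had wide footprints in both at 5 (27.8%), with Vamp2, a vesicle fusion protein gene, at 2 and 2. Cortical neuron factors had them at 5 of 20 (26.3% of the 19 with a peak in both), led by the corepressor gene Tle4 with 4 and 4. Excitatory glutamate receptor genes had them at 3 of 23, led by Grik4 with 2 and 2, and GABA-A receptor genes at 1 of 12, Gabra2 with 1 and 1. All but 3 of the glutamate receptor genes and 1 of the GABA-A receptor genes had a peak within 1 kb in both libraries. Astrocyte genes had them at 4 of 14 (Glul and Sox9 with 1 and 1), clustered protocadherin genes at 2 of 56 (2 of the 6 with a peak within 1 kb in both libraries, 33.3%), and Hox genes, oligodendrocyte lineage genes and microglial genes at 0 of 39, 0 of 13 and 0 of 12. In replicate 1 alone, 3 Hox genes and 2 oligodendrocyte lineage genes had at least 1, and no microglial gene had any. Of these last 3 lists, 5, 7 and 4 genes had a peak within 1 kb in both libraries. In bulk tissue, fewer cells of a type and weaker accessibility per cell cannot be told apart.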

How the data were processed

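DNase-seq of mouse frontal cortex was analysed from deposited files of 2 libraries in mm10 (GRCm38). Footprints were called per library, per the labels, and their p-value column, as deposited by the authors, is 0.01 in every row, so it ranks nothing. Peak signal values were deposited by the authors with a scaling that is not stated, and a deposited table lists an FDR for the cut rate by position. Aligner, caller and versions are not named in the labels. From these files, widths, overlaps (1 bp), peak membership, GENCODE M21 location, and matches of 28 motifs in 50 bp windows of the GRCm38.p6 reference were computed with Python 3.11.15, NumPy 2.4.6, pandas 2.3.3, SciPy 1.17.1, Numba 0.67.0 and matplotlib 3.10.9, and the scripts were tested on simulated data. Read depth is unknown, and intervals are 95% Wilson intervals. The text names the 8 widest and 10 strongest paired sites, the strongest paired site per motif higher in wide footprints, the 20 genes with most wide footprints and 2 members per gene list, of which a few are not reported here. Members and lists were chosen with earlier results of these data known. Alternatives changed the class limits, overlap rule, windows, peak list, unique sequence and libraries. Chromosomes X and Y stayed out of comparisons.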

Additional observations from a re-analysis of the deposited data

Results flagged for a closer look

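Chromosomes X and Y lay outside the autosomal comparisons, and wide footprints were present there too. Chromosome X had 580 wide footprints among 7042 in replicate 1 (8.24%, 95% Wilson interval 7.62 to 8.90) and 335 among 4123 in replicate 2 (8.13%, 7.33 to 8.999). Chromosome Y had 5 among 74 in replicate 1 and 2 among 65 in replicate 2, although the labels give female animals. The Y footprints lay between 90718722 and 90744831 on a chromosome of 91744698 bp, and 1 of them, chrY:90744706-90744750, had the same ends in both libraries.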

How the results depend on the processing

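Over 9 results and 74 alternatives, 42 stayed within the spread between libraries, 27 moved beyond it and 5 changed sign. Leaving out either of 2 libraries always stays within their SD of the mean. Those alternatives, counted here, could therefore show only a change of sign. Differences are wide minus narrow, in percentage points unless stated. With wide meaning 20 bp or more, the wide share was 16.3% and the differences were 10.6 for the longer peak list, 2.79 for start sites (reversed), 3.26 for GC content, 9.61 for CTCF and 0.222 for repeat bases (reversed). With 30 bp or more, the wide share was 5.34%, and the differences were 1.24 for log2 peak signal, -5.88 for start sites and 16.01 for CTCF. Against all footprints under 25 bp they were 10.9 for the longer peak list, 0.95 for log2 signal, -5.25 for start sites, 1.79 for GC content and 13.2 for CTCF. The shorter peak list gave 33.7 for membership and 0.69 for log2 signal. Footprints in peaks gave -0.285 for start sites and 13.9 for CTCF, and unique sequence gave -2.87 and 13.8. In the 2 upper signal bins, an alternative chosen after the data were seen, sharing was 49.2, start sites -14.7, GC content 0.659 and CTCF 12.6. Start windows of 500 and 100 bp gave -1.18 and 4.31 (reversed). CTCF was 13.02 in 100 bp windows, 14.1 with the match centre inside the footprint and 33.1 with up to 1 mismatch, also chosen after the data were seen. Repeat bases gave 0.554 (reversed) over the footprint's own bases. Leaving out either library gave repeat bases from -0.589 to 0.492, sharing from 53.6 to 69.5 and a partner that was wide from 54.0% to 78.8%. The cause of these shifts was not tested. Each difference was taken within a library, and 2 libraries limit what these differences can show. Unknown read depth limits how far the lower number of footprints in replicate 2 can be read.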
